A study of Drosophila melanogaster with 9 samples.

Results

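The replication-dependent histone genes of Drosophila melanogaster lie in a tandem array on chromosome arm 2L, and 111 of the 13937 annotated genes in the ovary RNA tables belong to it. They were chosen by name, as every gene whose FlyBase symbol begins with His1:, His2A:, His2B:, His3: or His4:. This gave 23 copies of His1, 20 of His2A, 23 of His2B, 23 of His3 and 22 of His4. Because the copies of a type are nearly identical, the estimated read counts were summed over the copies of each type before any comparison.

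His2A, His2B, His3 and His4 encode the core histones around which DNA is wound, and His1 encodes the linker histone that binds where DNA enters and leaves the nucleosome. These genes are transcribed in S phase, when new chromatin is assembled. Their mRNAs usually end in a stem-loop in place of a poly(A) tail, so libraries made by poly(A) selection hold few of them. In the ovary they are used by the dividing germline cysts, by the nurse cells and follicle cells that copy their DNA repeatedly without division, and by the supply that the egg receives.

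Ovaries of 0- to 1-day-old females reared at 18 °C gave 8 libraries of rRNA-depleted total RNA, 2 for each of 4 sibling genotypes. All of them carried UAS-Dcr-2.D, which raises the yield of RNAi, from a white mutant X chromosome, and the driver GAL4-nos.NGT, which is active in germ cells only, so somatic cells of the ovary keep both targets. Double-GKD (germline knockdown) ovaries had both hairpins, UAS-Piwi-RNAi and UAS-HP1a-RNAi. By their labels, Piwi-GKD ovaries had UAS-Piwi-RNAi over the driver with a TM3 balancer, HP1a-GKD ovaries had UAS-HP1a-RNAi with a Cy balancer, and Ctrl ovaries had neither hairpin but both balancers. UAS-Piwi-RNAi and the Cy balancer are alternative copies of chromosome 2, which also carries the histone array. Double-GKD and Ctrl thus differ in the array on that chromosome too. Its part cannot be told apart from that of the knockdowns. Each library pooled ovaries of many females, and the females of every knockdown are sterile according to the study. Piwi guides transcriptional silencing of transposons, and HP1a is a structural protein of heterochromatin.

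The mRNA of the targets went against the labels of the single knockdowns. piwi stood at 158 and 147 TPM (transcript level per length, scaled to the same sum in every library) in double-GKD, 259 and 229 TPM in libraries with the Piwi-GKD label, 129 and 134 TPM in libraries with the HP1a-GKD label, and 318 and 276 TPM in Ctrl. HP1a mRNA stood at 161 and 172 TPM in double-GKD, 166 and 189 TPM in libraries with the Piwi-GKD label, 342 and 358 TPM in libraries with the HP1a-GKD label, and 327 and 328 TPM in Ctrl. The lower piwi level was thus in the libraries labelled HP1a-GKD, and HP1a mRNA was low only in double-GKD and the libraries labelled Piwi-GKD. The names of the deposited tables also give the single knockdowns the opposite genotype. Groups follow the labels throughout, and no direction below is assigned to either target in the single knockdowns.

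Few reads fell on the array. Of 10773406 to 12802084 estimated counts per library, 8335 to 13190 came from the 111 copies, 0.0740% to 0.104% of a library. His1 held 92.0% to 95.4% of these counts. The summed level of His1 was 1215 and 1384 TPM in double-GKD, 1194 and 1469 TPM in libraries with the Piwi-GKD label, 1410 and 1387 TPM in libraries with the HP1a-GKD label, and 1233 and 1257 TPM in Ctrl. The core histones were far lower, between 4.73 TPM for His2A and 124 TPM for His2B, both in Ctrl. In chromatin the core histones outnumber the linker histone. How the authors treated reads with many positions is not given in the sources used here, and its part in the low core histone counts was not tested.

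**Figure D1:**
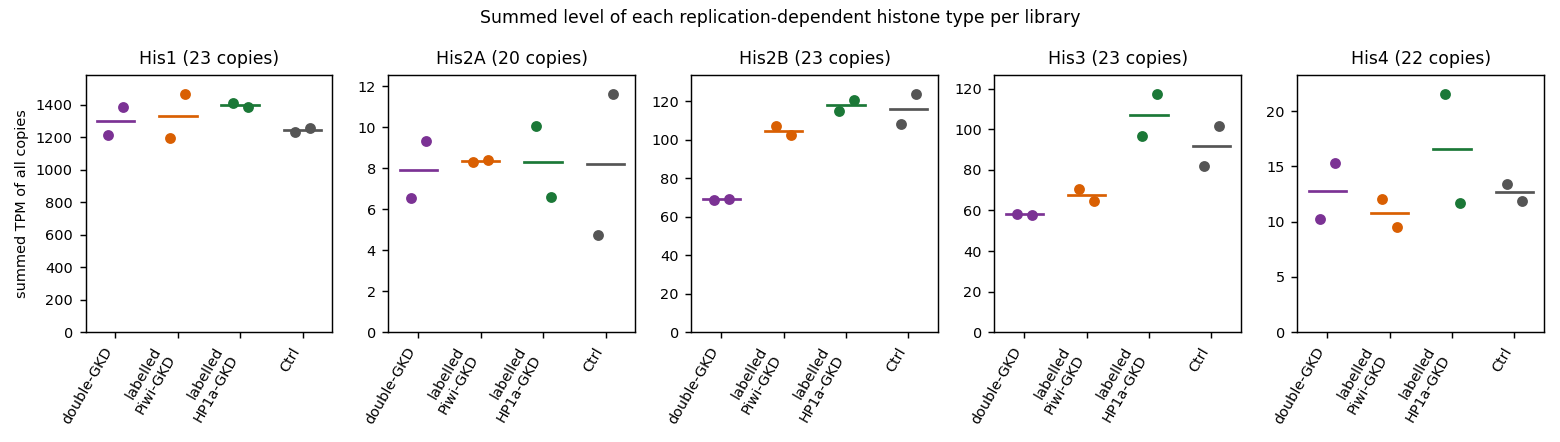
Summed TPM of all copies of each histone type (vertical axis, linear and from 0, with its own scale in each panel) in the 2 libraries of each group (points), with the group mean (line). The double-GKD libraries lie below both Ctrl libraries for His2B and His3, while the 2 groups overlap for His2A and His4 and His1 stays between 1194 and 1469 TPM in all 8 libraries.

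His2B and His3 mRNA was lower in double-GKD than in Ctrl, by close to 2-fold each, and the other types did not pass the test. The His2B sum is in effect the value of a single copy, His2B:CG33910, which held 94.5% to 99.8% of its counts in every library. His2B had 232 and 304 counts in double-GKD, against 456 and 593 counts in Ctrl. Scaled by TMM (trimmed mean of M values, which assumes that most genes do not change), this was 20.2 and 22.5 CPM (counts relative to library size) in double-GKD and 39.4 and 51.0 CPM in Ctrl. All double-GKD values lay below all Ctrl values, and the fold change was −1.08 ± 0.14 on the log2 scale (SE, n = 2 each), 2.12-fold lower, with a 95% interval of −1.42 to −0.74 and an adjusted p of 0.00053 in edgeR's quasi-likelihood test. His2B forms a dimer with His2A, and His3 one with His4.

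His3 had 128 and 166 counts in double-GKD, against 225 and 317 counts in Ctrl. Its TMM-scaled values were 11.2 and 12.3 CPM in double-GKD and 19.5 and 27.3 CPM in Ctrl, again without overlap. It was 1.99-fold lower in double-GKD, at −0.99 ± 0.19 log2 (95% interval −1.44 to −0.55, edgeR adjusted p = 0.0033). With the single knockdown libraries left out of the fit, the log2 fold changes were −1.07 for His2B and −0.98 for His3, and both stayed past the threshold of 0.05. So 2 of 5 types were lower in double-GKD, where 28.3% of the 9324 features tested were lower and 28.3% higher.

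His1 did not pass the test in double-GKD, with 7925 and 11789 counts there and 10053 and 11636 counts in Ctrl. The spread between the double-GKD replicates was larger than the difference between the groups. The fold change was −0.26 ± 0.18 log2 with TMM scaling (95% interval −0.69 to 0.17, edgeR adjusted p = 0.26), and its sign turned to 0.059 when TPM was compared with limma. The median over all features was 0.00 log2 with TMM, 0.20 with library size alone and 0.27 with limma on TPM. Against Ctrl, the libraries labelled Piwi-GKD had medians of 0.00, 0.24 and 0.33 under the same scalings.

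His2A, the dimer partner of His2B, had 21 and 39 counts in double-GKD and 19 and 53 counts in Ctrl. His4, the partner of His3, had 29 and 56 counts in double-GKD and 47 and 48 counts in Ctrl. Both overlapped between the groups. Their intervals, −1.54 to 0.76 log2 for His2A and −1.13 to 0.55 for His4 (edgeR adjusted p = 0.54 and 0.52), include both 0 and a 2-fold fall.

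Within the family, the shares do not depend on the scaling between libraries. His2B made up 2.78% and 2.46% of all histone counts in double-GKD, against 4.22% and 4.69% in Ctrl. His3 made up 1.54% and 1.34% in double-GKD and 2.08% and 2.51% in Ctrl. His1 made up 95.1% and 95.4% in double-GKD and 93.1% and 92.0% in Ctrl. None of these shares overlapped between double-GKD and Ctrl. They are parts of the same total, from the counts tested above, so they add no separate support. With 2 libraries a group, a lack of overlap also arises easily without a difference, and its frequency over all features was not computed. In the libraries with the Piwi-GKD label, His2B made up 4.32% and 3.41%, which overlapped Ctrl, and His3 made up 1.85% and 1.40%, below Ctrl.

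The libraries labelled Piwi-GKD showed lower values for the same types. His3 had 163 and 163 counts there, against 225 and 317 counts in Ctrl, and after TMM scaling 12.5 and 13.3 CPM in libraries with the Piwi-GKD label against 19.5 and 27.3 CPM in Ctrl. It was 1.81-fold lower (−0.86 ± 0.19 log2, edgeR adjusted p = 0.0062), with no overlap. His2B had 380 and 398 counts in libraries with the Piwi-GKD label, or 29.1 and 32.4 CPM, against 39.4 and 51.0 CPM in Ctrl. It was 1.47-fold lower (−0.56 ± 0.14 log2, edgeR adjusted p = 0.012), but this call was lost without replicate 1 labelled Piwi-GKD (−0.49, adjusted p = 0.0586) and without Ctrl replicate 2 (−0.36, adjusted p = 0.0587). It was also lost with library size as the only scaling (−0.31, adjusted p = 0.075) and with limma on TPM (−0.14, adjusted p = 0.21). In TPM, His2B was 107 and 103 in libraries with the Piwi-GKD label, close to 108 and 124 in Ctrl, whereas double-GKD stood at 68.8 and 69.2.

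The 2 of 5 types lower in the libraries labelled Piwi-GKD stand beside 29.5% of all features lower and 29.5% higher in this comparison. His1, with 8198 and 11037 counts in these libraries, differed from Ctrl by −0.29 ± 0.18 log2 with TMM and by 0.089 with limma on TPM, and its interval of −0.72 to 0.14 includes 0. Without replicate 2 labelled Piwi-GKD, the His1 difference was −0.58 with an adjusted p of 0.029. His2A had 28 and 31 counts and His4 had 36 and 31 counts in libraries with the Piwi-GKD label. Neither passed the test, at −0.41 ± 0.49 and −0.63 ± 0.36 log2, although both His4 values lay below 47 and 48 in Ctrl. The comparisons of the 3 knockdowns with Ctrl share the same 2 Ctrl libraries.

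With the HP1a-GKD label, no type passed the test. His2B had 515 and 521 counts there, against 456 and 593 counts in Ctrl, and His3 had 283 and 330 counts, against 225 and 317 counts in Ctrl. The other types had counts of 12268 and 11579 for His1, 43 and 27 for His2A and 81 and 42 for His4. After TMM scaling, all 5 types overlapped with Ctrl. The log2 fold changes were 0.11 ± 0.18 for His1, −0.06 ± 0.49 for His2A, −0.04 ± 0.14 for His2B, 0.15 ± 0.19 for His3 and 0.35 ± 0.35 for His4. edgeR called 0 types, beside 1.45% of all features in either direction, and the count was also 0 at an unadjusted p under 0.05, in DESeq2 and in limma on TPM. The intervals of His2B (−0.37 to 0.29) and His3 (−0.28 to 0.59) leave out a 2-fold fall.

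**Figure D2:**
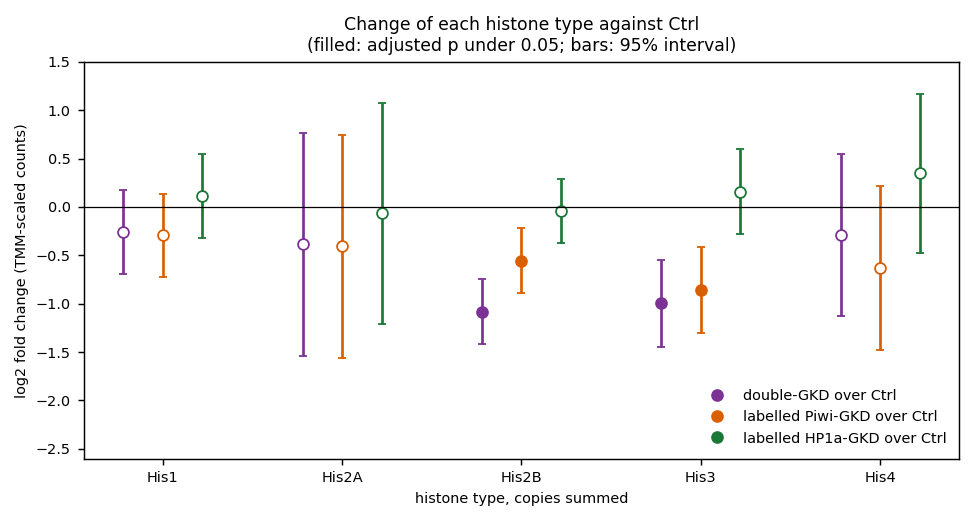
Log2 fold change over Ctrl (vertical axis, TMM-scaled summed counts) of the 5 histone types for double-GKD, the libraries labelled Piwi-GKD and those labelled HP1a-GKD, 2 libraries a group. Bars are 95% intervals and filled points have an adjusted p under 0.05, which only His2B and His3 reach, in double-GKD and the libraries labelled Piwi-GKD.

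Set directly against the libraries labelled HP1a-GKD, double-GKD was lower in His2B by 2.06-fold (−1.04 ± 0.14 log2, edgeR adjusted p = 0.00075) and in His3 by 2.22-fold (−1.15 ± 0.19, adjusted p = 0.0019), and 25.9% of all features were lower. His1 differed by −0.37 ± 0.18 log2 in the same comparison (adjusted p = 0.13). Against the libraries labelled Piwi-GKD, no type passed the test in double-GKD, where 1.14% of all features did. The closest was His2B, with 20.2 and 22.5 CPM in double-GKD against 29.1 and 32.4 CPM in libraries with the Piwi-GKD label, a difference of −0.53 ± 0.15 log2 (unadjusted p = 0.0075, adjusted p = 0.19 in edgeR). It did pass with limma on TPM, at −0.60 and an adjusted p of 0.025, and DESeq2 called no type here. The interaction, which asks whether double-GKD departs from the sum of both single effects on the log2 scale, was not past the threshold for any type in edgeR, DESeq2 or limma, beside 0.257% of all features. At −0.48 ± 0.20 log2, His2B was the 1 type with an unadjusted p under 0.05 (0.046, adjusted p = 0.60).

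Across the 8 libraries, the TMM-scaled log2 levels of His2B and His3 had the highest correlation of the 10 pairs of types (Pearson's r = 0.93), and His2A with His2B the lowest (r = 0.47). These values describe 8 libraries in 4 groups that share their scaling, and the low counts of His2A and His4 limit those pairs. The 6 genes outside the family whose TMM-scaled levels followed the summed histone counts most closely were mei-S332, which protects cohesion at centromeres, CG15107, CG4957, Cks85A, a cyclin-dependent kinase subunit, snf, a spliceosomal protein, and Srp19, of the signal recognition particle. Their Pearson correlations ran from 0.99 to 0.97 over the 8 libraries, and since His1 dominates the sum, they describe likeness to His1. These values are the highest picked from all tested features, so selection alone makes them high, and no shared role was tested.

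Reads of the array could not be placed on single copies. Of the 111 copies, 60 stood at 0 in all 8 libraries and only 6 had at least 1 count in every library. Of the 182 single copy values above 0, 12 were within 0.01 of a whole number, while 38 of the 40 sums per type and library were. Reads were thus divided between copies of 1 type, hardly between types, and the sums are the values that can be compared.

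His3 shows this most plainly, as nearly all its reads went to a single copy that changed from library to library. In double-GKD, His3:CG33824 held all 128 counts of replicate 1 and His3:CG33818 all 166 counts of replicate 2. In the libraries labelled Piwi-GKD the copy was His3:CG33818 with 161 counts and His3:CG33830 with 163, and in those labelled HP1a-GKD it was His3:CG33821 with 282 counts and His3:CG33818 with 329. In both Ctrl libraries it was His3:CG33830, with 225 and 315 counts. All 23 His3 transcripts are annotated with the same length of 468 bases. A copy at 0 in 1 replicate of a group and at 10 or more counts in the other occurred 11 times in double-GKD, 9 times in the libraries labelled Piwi-GKD, 6 times in those labelled HP1a-GKD and 16 times in Ctrl. The largest such gap was His1:CG33837, at 1903 and 0 counts in Ctrl.

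**Figure D3:**
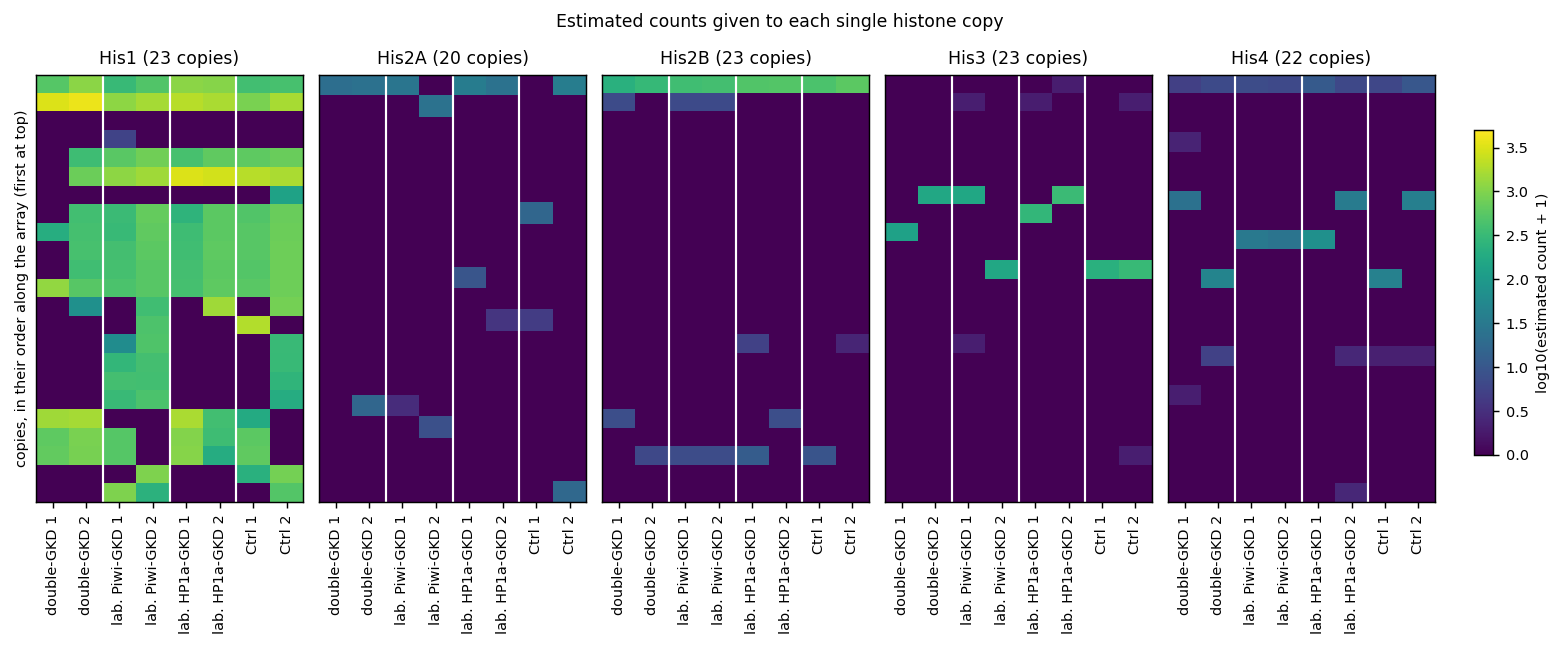
Estimated counts of each single copy (colour, log10 of the count plus 1) by library (columns), 1 panel for each histone type, with the copies of a type in their order along the array from top to bottom. His2B reads sit in the first copy in every library, His3 reads jump between copies, and His1 reads lie on 7 to 17 of its 23 copies in each library.

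His2B is the exception among the core histones. His2B:CG33910 (FBgn0053910) held 94.5% to 99.8% of the His2B counts in every library, with 219 and 299 counts in double-GKD, 368 and 386 in libraries with the Piwi-GKD label, 500 and 514 in libraries with the HP1a-GKD label, and 448 and 592 in Ctrl. Its annotated transcript is 585 bases, against 555 bases for 20 of the 23 copies. In the order of the Release 6 gene table, this copy is in the first unit at 1 end of the array, beside His1:CG33801, His4:CG33909 and His3:CG33803, where no His2A copy is listed. All 111 copies were found in that table. His4:CG33909 was the only His4 copy with at least 1 count in every library, at 4.00 to 10.3 counts, and its annotated 574 bases exceed the 524 to 530 bases of 20 of the other copies.

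Since a copy's own values carry this uncertainty, calls on single copies are descriptions of the assignment. After the filter on low counts 27 of the 111 copies were tested, 20 of them His1. In double-GKD 3 copies were higher and 3 lower, where 28.1% of all 9346 genes were higher and 28.1% lower. His1:CG31617, the His1 copy with the highest mean count, had 3207 and 3967 counts in double-GKD, 1186 and 1573 in libraries with the Piwi-GKD label, 2016 and 1721 in libraries with the HP1a-GKD label, and 893 and 1618 in Ctrl. It was higher in double-GKD than in Ctrl (1.41 ± 0.27 log2, edgeR adjusted p = 0.0038), although the His1 sum was not. Among the called copies, the largest rise was His1:CG33852 (3.95 ± 1.25 log2, edgeR adjusted p = 0.035). It stood at 1476 and 1608 counts in double-GKD but 185 and 0 counts in Ctrl, and at 0 in both libraries labelled Piwi-GKD.

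Among the called copies, the largest fall was His3:CG33830, at 0 in both double-GKD libraries. It was at least 77.0-fold lower there than in Ctrl, with 3 counts per library as the floor. Other His3 copies held the reads in double-GKD. His2B:CG33910 fell by 1.12 log2 (SE 0.16, adjusted p = 0.00083) in double-GKD, as its sum did, and His1:CG33801 and His1:CG33822 were the other called copies (0.90 and −1.22 log2). Leaving out double-GKD replicate 2 or Ctrl replicate 1 gave 7 lower copies, and leaving out Ctrl replicate 2 or replicate 1 with the HP1a-GKD label gave 1 higher copy. In the libraries labelled Piwi-GKD only His2B:CG33910 was called (−0.59 ± 0.16 log2, adjusted p = 0.015), 1 lower copy beside 29.1% of genes lower. In those labelled HP1a-GKD edgeR called 0 copies, beside 1.37% of genes called in either direction. At an unadjusted p under 0.05, 3 copies were higher and 6 lower, and DESeq2 called 1 higher and 3 lower. In the fit on summed types, 1046 of 9324 features had an unadjusted p under 0.05. There DESeq2 called 1.44% of features higher and 1.02% lower. Copies that share reads are not independent, so these counts describe no effect on single copies.

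The replacement histones, which are made outside S phase from single genes with poly(A) tails, and other variants were also read. They are not copies of the array, though some of their estimated counts were fractional as well. BigH1, the linker histone of the germline and early embryo, had 10.9 and 12.1 TPM in double-GKD, 10.2 and 9.41 TPM in libraries with the Piwi-GKD label, 61.6 and 60.7 TPM in libraries with the HP1a-GKD label, and 85.2 and 65.1 TPM in Ctrl. It fell in double-GKD (−3.02 ± 0.13 log2, edgeR adjusted p = 9.1e-06) and the libraries labelled Piwi-GKD (−3.33 ± 0.14, adjusted p = 5.4e-06), and in the libraries labelled HP1a-GKD both values lay below Ctrl without a call.

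His2Av, the H2A variant that serves as both H2A.Z and H2A.X in flies, had 506 and 514 TPM in double-GKD, 559 and 535 TPM in libraries with the Piwi-GKD label, 770 and 762 TPM in libraries with the HP1a-GKD label, and 808 and 681 TPM in Ctrl. It fell in double-GKD and the libraries labelled Piwi-GKD (−0.86 ± 0.10 and −0.84 ± 0.10 log2, adjusted p = 0.00024 and 0.00027). cid, the centromeric H3 variant, was at 11.4 and 11.2 TPM in double-GKD, 11.0 and 9.83 TPM in libraries with the Piwi-GKD label, 12.6 and 14.1 TPM in libraries with the HP1a-GKD label, and 14.9 and 14.1 TPM in Ctrl. Its fold changes of −0.68 ± 0.15 in double-GKD and −0.88 ± 0.15 in libraries with the Piwi-GKD label passed the test (adjusted p = 0.0056 and 0.0015), the first of them not with limma on TPM (−0.33, adjusted p = 0.079).

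The replacement genes of H3.3 and H4 did not pass the test with TMM. His3.3A, His3.3B and His4r differed from Ctrl by −0.15, 0.10 and 0.09 log2 in double-GKD and by −0.08, 0.02 and 0.02 in libraries with the Piwi-GKD label. Under library size alone His3.3B was higher in both (0.30 and 0.26 log2). Limma on TPM called His4r higher in both (0.42 and 0.45) and His3.3A higher in the libraries labelled Piwi-GKD (0.32). Over all features, library size alone called 36.3% higher in double-GKD and 39.1% with the Piwi-GKD label. Limma on TPM called 36.9% higher in double-GKD and 42.3% with the Piwi-GKD label. His4r stood at 1307 and 1380 TPM in double-GKD, 1257 and 1494 TPM in libraries with the Piwi-GKD label, 969 and 1050 TPM in libraries with the HP1a-GKD label, and 894 and 1131 TPM in Ctrl. Thus 3 of 6 genes of this list were lower and 0 higher in edgeR and DESeq2 in both comparisons, where edgeR called 28.3% (double-GKD) and 29.5% (Piwi-GKD label) of all features lower, with medians of −0.41 log2 in double-GKD and −0.46 in libraries with the Piwi-GKD label, beside 0.00 over all features. With the HP1a-GKD label, 0 of 6 were called by edgeR, DESeq2 or limma. At an unadjusted p under 0.05, 1 was lower, beside 1046 of 9324 features in either direction.

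Among genes that transcribe the array or cut its transcripts, the calls depended on the scaling. Of the 14 genes tested, 6 were lower and none higher in double-GKD with TMM, beside 28.3% of all features lower. Across all features, the share called lower in double-GKD was 19.5% with library size alone and 14.9% with limma on TPM, and with the Piwi-GKD label it was 19.5% and 13.7%. They were Hinfp, a zinc finger protein that in mammals activates H4 genes (−0.80 ± 0.13), Slbp, the stem-loop binding protein (−0.53 ± 0.11), abo, a negative regulator of histone transcription (−0.52 ± 0.10), Cpsf73, the endonuclease of 3′ end cleavage (−0.51 ± 0.12), Spt6, an elongation factor (−0.39 ± 0.13), and mute, of the histone locus body (−0.26 ± 0.08). Not called there were mxc (−0.28), the scaffold of that body, FLASH (−0.04), Lsm10 (−0.33) and Lsm11 (−0.31) of the U7 particle, Cpsf100 (−0.06) and Sym (−0.11) of the cleavage complex, Clamp (−0.09), which binds the array's promoters, and Trf2 (−0.05), needed at the His1 promoter. With library size alone mute and Spt6 lost the call, and with limma on TPM none of the 14 was called in double-GKD and mute turned to 0.10 log2.

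In the libraries labelled Piwi-GKD the same 6 genes and Lsm10 (−0.75 ± 0.23 log2) were lower with TMM and none was higher, beside 29.5% of all features lower, with a list median of −0.41 log2, against −0.29 in double-GKD. Library size alone left 2 lower, Slbp and Hinfp. It called FLASH, Sym, Clamp and Trf2 higher (0.20 to 0.43 log2), beside 39.1% of all features higher. Limma on TPM called 0 lower and 3 higher, beside 42.3% of all features higher. Slbp stood at 44.3 and 41.9 TPM in double-GKD, 44.9 and 40.7 TPM in libraries with the Piwi-GKD label, 51.9 and 48.2 TPM in libraries with the HP1a-GKD label, and 56.5 and 43.6 TPM in Ctrl, so that double-GKD and the libraries labelled Piwi-GKD both overlapped Ctrl in TPM. With the HP1a-GKD label, none of the 14 was called by edgeR, DESeq2 or limma or reached an unadjusted p under 0.05.

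**Figure D4:**
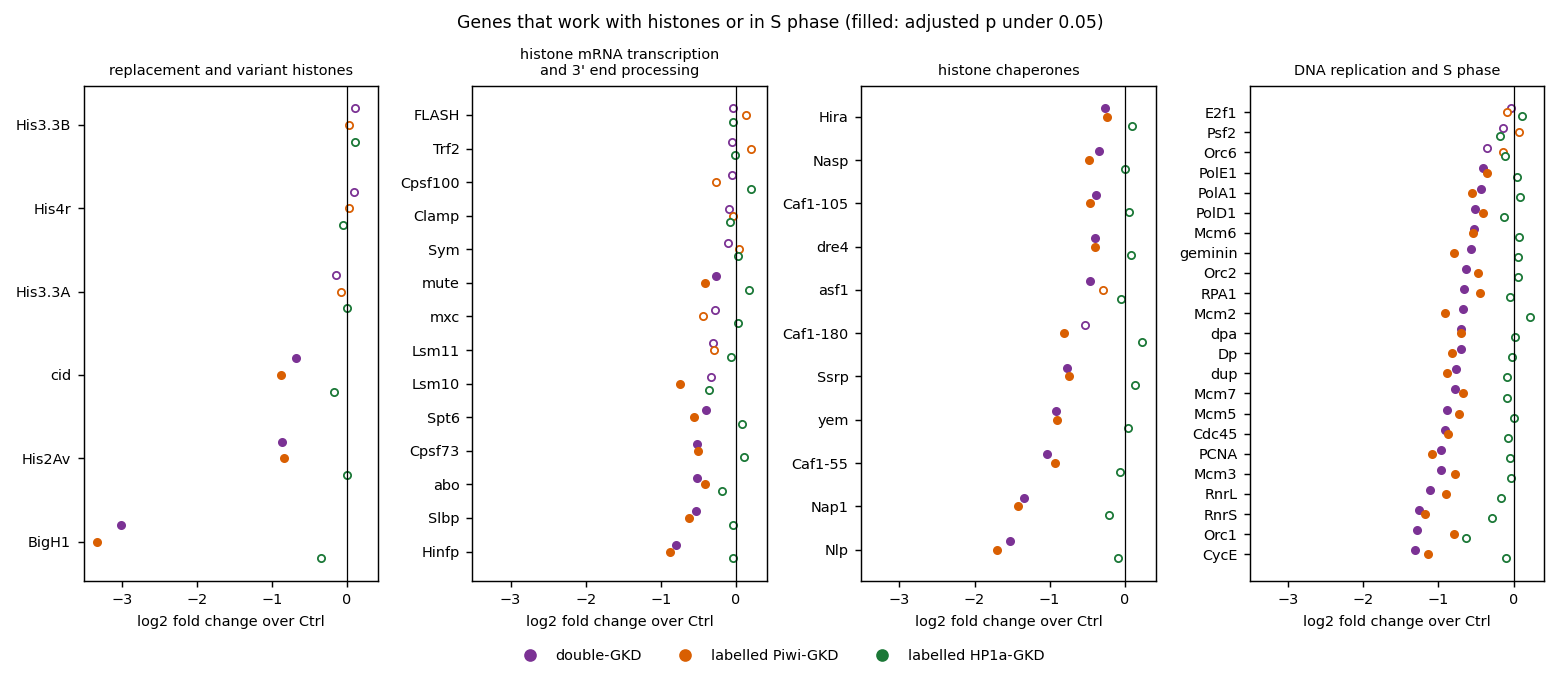
Log2 fold change over Ctrl (horizontal axis, TMM-scaled counts) of replacement and variant histones, factors of histone mRNA synthesis, histone chaperones and replication genes in double-GKD, the libraries labelled Piwi-GKD and those labelled HP1a-GKD, with filled points at an adjusted p under 0.05. BigH1 lies at about −3 in double-GKD and the libraries labelled Piwi-GKD, replication genes fall mostly between −0.4 and −1.3 in both, and no point of the libraries labelled HP1a-GKD is filled.

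Histone chaperones, which carry histones to and from DNA, were lower in double-GKD for 10 of 11 genes and higher for none, beside 28.3% of all features lower, with a median of −0.53 log2. The largest falls were Nlp, a nucleoplasmin (−1.53 ± 0.09), Nap1, a carrier of H2A and H2B (−1.35 ± 0.10), and Caf1-55, a subunit of the replication-coupled CAF-1 complex (−1.04 ± 0.12). Nlp stood at 412 and 408 TPM in double-GKD, 423 and 351 TPM in libraries with the Piwi-GKD label, 922 and 920 TPM in libraries with the HP1a-GKD label, and 1029 and 868 TPM in Ctrl. The smallest called were Hira (−0.26), which deposits H3.3, Nasp (−0.34), which holds H3 and H4, and Caf1-105 (−0.39). These 3 lost the call with library size alone, which left 5 lower, beside 19.5% of all features. Hira turned to 0.055 log2 with limma on TPM, which left 4 lower, beside 14.9%. In the libraries labelled Piwi-GKD 10 were lower as well (median −0.74), beside 29.5% of all features. Library size alone left 6 lower, beside 19.5%, and limma on TPM left 3, beside 13.7%. In those labelled HP1a-GKD edgeR, DESeq2 and limma called 0, with 0 at an unadjusted p under 0.05.

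Genes of DNA replication and S phase were lower for 20 of 23 in double-GKD and higher for none, beside 28.3% of all features lower, with a median of −0.70 log2 against 0.00 over all features. The largest falls were CycE, the cyclin of S phase entry (−1.32 ± 0.09), Orc1, of the origin recognition complex (−1.29 ± 0.15), and RnrS, a subunit of ribonucleotide reductase (−1.26 ± 0.08). CycE stood at 11.9 and 10.2 TPM in double-GKD, 13.6 and 12.6 TPM in libraries with the Piwi-GKD label, 20.2 and 21.96 TPM in libraries with the HP1a-GKD label, and 24.2 and 19.5 TPM in Ctrl. The smallest called were the DNA polymerase subunits PolE1 (−0.40), PolA1 (−0.43) and PolD1 (−0.52). The first 2 of these lost the call with library size alone, which left 17 lower, beside 19.5% of all features. Limma on TPM left 12 lower, beside 14.9%. In the libraries labelled Piwi-GKD 20 of 23 were lower too (median −0.73), beside 29.5% of all features. Library size alone left 15 lower, beside 19.5%. Limma on TPM left 10 lower, beside 13.7%, and called 1 higher, beside 42.3%. In those labelled HP1a-GKD edgeR called 0, DESeq2 1 lower, limma 0, and 2 were lower at an unadjusted p under 0.05.

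Markers of other cells moved with these results. Over all features, edgeR called 28.3% lower and 28.3% higher in double-GKD. With the Piwi-GKD label it called 29.5% lower and 29.5% higher. Of 7 germline markers measured, 6 fell in double-GKD (median −1.80 log2) and 6 in libraries with the Piwi-GKD label (median −1.72). Their summed level was 337 to 341 TPM in double-GKD, 349 to 378 TPM in libraries with the Piwi-GKD label, 1257 to 1264 TPM in libraries with the HP1a-GKD label, and 1470 to 1490 TPM in Ctrl. Much of this sum was osk, at 174 and 175 TPM in double-GKD and 1025 and 1060 TPM in Ctrl. The marker not called was grk, at 27.3 and 23.5 TPM in double-GKD and 20.1 and 19.1 TPM in Ctrl. All 8 markers of the muscle sheath rose in double-GKD and in the libraries labelled Piwi-GKD. Their summed levels were 8337 to 10248 TPM in double-GKD and 9027 to 11328 TPM in libraries with the Piwi-GKD label. Libraries with the HP1a-GKD label stood at 2941 to 3199 TPM and Ctrl at 2560 to 2718 TPM. Of 7 follicle and escort cell markers, 5 rose in each of double-GKD and the libraries labelled Piwi-GKD, with summed levels of 343 to 421 TPM in double-GKD and 297 to 418 TPM in libraries with the Piwi-GKD label, against 135 to 150 TPM in libraries with the HP1a-GKD label and 108 to 137 TPM in Ctrl.

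Of 8 late follicle cell markers only the yolk protein genes could be tested, and the eggshell genes of that list were too low for the test. The summed level of all 8 was 355 and 163 TPM in double-GKD, 246 and 47.3 TPM in libraries with the Piwi-GKD label, 201 and 48.6 TPM in libraries with the HP1a-GKD label, and 191 and 56.1 TPM in Ctrl, higher in replicate 1 than in replicate 2 of all 4 groups. With the HP1a-GKD label, no list of markers had a call in edgeR, beside 1.45% of all features. At an unadjusted p under 0.05 there were 2 germline, 1 follicle and 1 muscle marker, beside 1046 of 9324 features. The part of these marker changes in the lower His2B and His3 was not tested. In bulk RNA, fewer cells of a type and less RNA per cell cannot be told apart.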

How the data were processed

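RNA of 8 ovary libraries was analysed, 2 for each of 4 genotypes grouped by the labels. The authors aligned single-end reads with STAR to dm3 and counted them for BDGP5 genes. The deposited tables are gene-level Salmon output. Their estimated counts are not normalised and are fractional where the authors' tool divided a read between genes, and their TPM values are these counts per effective length, scaled by the authors to a fixed sum per library. Versions and the handling of reads with many positions are not given in the sources used here, nor whether counting used strand.

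Counts of the copies of each histone type were summed, rounded and fitted with all other genes in edgeR 4.0.16 (R 4.3.3, limma 3.58.1), with filterByExpr, TMM and glmQLFTest over all 8 libraries in 1 model, no covariates. All 5 sums passed the filter. P-values were adjusted by Benjamini-Hochberg over 9324 features, or 9346 genes for single copies, and called at 0.05. The 3 knockdowns were compared with Ctrl, double-GKD also with both single knockdowns, and an interaction was fitted. Intervals cover 95%. At these depths 3 counts equal 0.234 to 0.278 CPM. P-values and intervals of edgeR rest on the spread between 2 biological replicates per genotype, each a pool of ovaries. This spread is estimated jointly over the 4 genotypes and drawn towards that of other features. The SE is the absolute log2 fold change divided by the square root of the F statistic.

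Symbols came from a name table for 13388 of 13937 IDs, and from the study's gene lists up to 13484. vas and Snp were not matched and are not analysed here, and no sequences are shown. The order of copies is that of a Release 6 table, whose coordinates were not used. The transposon insertion table was not used. The members and gene lists were chosen with earlier results of these data known.

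Named are the 5 sums, per type the copy with the highest mean count and the copies with the largest rise and fall past the threshold, all genes of the replacement histone and histone mRNA lists, the 3 lowest and 3 highest called in double-GKD of the chaperone and replication lists, the mRNAs of both knockdown targets and the 6 genes most like the histone sum. Other copies were named after their values were seen. Alternatives were DESeq2 1.42.0, its size factors, library size alone, no filter, only the groups compared, a replicate block, limma on log2(TPM + 1), histone reads left out of the library sizes, and leaving out each library. The same fits were tested on simulated data. Python 3.11.15, pandas 2.3.3 and matplotlib 3.10.9 did the rest.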

Additional observations from a re-analysis of the deposited data

How the results depend on the processing

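All values here are log2 fold changes of type sums unless counts of copies are named, and the single knockdowns are named by their labels. The lower His2B and His3 in double-GKD against Ctrl kept direction and call in all 8 alternatives (His2B −1.11 to −0.74, adjusted p 4.0e-08 to 0.0030, and His3 −1.03 to −0.64, adjusted p 0.00012 to 0.0090) and without any 1 library (His2B −1.26 to −0.89, His3 −1.23 to −0.74), and His3 in Piwi-GKD did so too (−1.09 to −0.60 without 1 library). Values that turned sign were all of sums past no threshold. The His4 interaction turned to 0.0022 with DESeq2's size factors in edgeR, 0.0029 with DESeq2 and 0.019 with the replicate block. With library size alone, double-GKD against Piwi-GKD turned to −0.0043 for His1 and −0.017 for His2A, and His2B in Piwi-GKD against Ctrl lost its call (−0.31). With limma on log2(TPM + 1), double-GKD against Ctrl turned to 0.059 for His1 and 0.050 for His2A, Piwi-GKD against Ctrl to 0.089 for His1 and 0.13 for His2A, and HP1a-GKD against Ctrl to 0.10 for His2A and 0.024 for His2B. The same setting gave −0.030 for His1 and −0.083 for His2A in double-GKD against Piwi-GKD and −0.19 for the His2A interaction, ended the call of His2B in Piwi-GKD (−0.14) and gained one for His2B in double-GKD against Piwi-GKD (−0.60). Same-numbered libraries were not taken as pairs, since their deviations correlated at over 0.1 in only 3 of the 6 pairs of groups (mean r 0.082, −0.076 to 0.22). The replicate block turned His2A to 0.041 in HP1a-GKD against Ctrl, −0.0045 in double-GKD against Piwi-GKD and −0.045 in the interaction, and it called His1 lower in double-GKD against HP1a-GKD (−0.39, adjusted p = 0.039). It changed no other call of a type. Calls on single copies were not stable. Lower copies in double-GKD numbered 7 without the filter, 5 with DESeq2 and 6 with the block, against 3 in edgeR with TMM. In Piwi-GKD 2 were lower with DESeq2 and 3 with the block, against 1, and in HP1a-GKD 1 was higher with DESeq2 or the block and 3 lower with DESeq2, against 0. Of all features in the fits on summed types, 19.7% (no filter), 26.5% (DESeq2) and 31.1% (block) were lower in double-GKD. In Piwi-GKD 27.9% (DESeq2) and 32.1% (block) were lower. In HP1a-GKD 1.44% (DESeq2) and 1.33% (block) were higher, and 1.02% (DESeq2) lower.

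A fit without 1 library leaves a lone sample in its group, which is assumed to vary like the others. Against Ctrl, such fits ranged in double-GKD from −0.95 to 0.52 for His2A and −0.71 to 0.014 for His4, and in Piwi-GKD from −0.58 to −0.068 for His1, −0.97 to 0.50 for His2A and −0.74 to −0.36 for His2B. In HP1a-GKD they ranged from −0.62 to 0.85 for His2A, −0.22 to 0.16 for His2B, −0.069 to 0.42 for His3 and −0.19 to 0.74 for His4. For double-GKD against Piwi-GKD they ranged from −0.20 to 0.31 for His1, −0.36 to 0.31 for His2A and −0.077 to 0.65 for His4, for double-GKD against HP1a-GKD from −0.72 to 0.032 for His2A, and for the interaction from −0.31 to 0.20 for His1, −0.83 to 0.64 for His2A and −0.43 to 0.53 for His4. Called copies ranged from 1 to 3 higher and 2 to 7 lower in double-GKD, from 0 to 5 higher and 0 to 3 lower in Piwi-GKD, and from 0 to 1 higher and 0 to 3 lower in HP1a-GKD. The 7 lower copies in double-GKD came without double-GKD replicate 2 and without Ctrl replicate 1, the single higher copy without HP1a-GKD replicate 1 and without Ctrl replicate 2, and the 5 higher copies in Piwi-GKD without Ctrl replicate 2. The other counts that moved by over 1.5 times came without double-GKD replicate 1, either Piwi-GKD replicate or either HP1a-GKD replicate. The depth of His2A and His4, at 19 to 81 counts per library, limits what any setting can show for them.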
